A study of Mus musculus with 30 samples.

Results

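The mixing effect in naive cells is the difference, gene by gene, between naive CD8+ T cells activated in a mixed culture with memory CD8+ T cells (TN mix) and naive cells activated by themselves (TN alone). Here it was followed across time as the effect at 96 h minus the effect at 18 h. Members were taken as every array of the 4 groups concerned, which gave 12 of the 30 arrays of the study, and the genes were the 19106 on autosomes among 19938 genes measured.

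The groups were TN mix at 96 h, TN alone at 96 h, TN mix at 18 h and TN alone at 18 h, each with 3 arrays labelled as biological repeats. All cells were labelled as spleen CD8+ T cells of female C57BL/6 Pmel-1 mice aged 6 to 12 weeks, whose transgenic receptor recognises the melanocyte antigen gp100. TN cells carried the Ly5.1 allele, and the memory cells (TMem) carried Ly5.2 and had been differentiated in vitro. Every culture at 18 h and 96 h received antibodies to CD3 and CD28 together with IL-2, so stimulation was shared by the mixed and the unmixed groups, and cells were sorted by flow cytometry before RNA extraction. Nothing in the labels names the mixing ratio, and no label ties an array of TN mix to a particular culture of TMem mix. The other 18 arrays were 12 of TMem at the same times and 6 of unstimulated TN and TMem at 0 h. Values are the deposited log2 intensities, so a difference of 1 is a doubling of signal, and levels of different genes are not compared.

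A naive CD8+ T cell that meets signals through its receptor and CD28 leaves quiescence. It lowers transcripts that hold it in recirculation (Klf2, S1pr1, Il7r), makes cytokines and granzymes within hours, builds ribosomes, and over the next days divides and turns to glycolysis and lipid synthesis. A memory cell has already been through this programme and restarts it faster, which is why the comparison of mixed and unmixed naive cells asks whether naive cells take on that course in the company of memory cells.

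The labelled cell type was borne out by its markers. The summed level of 10 CD8 T cell markers, on the log2 scale, was 15.12 to 15.19 in TN mix and 15.12 to 15.14 in TN alone at 96 h, and 14.96 to 15 in TN mix and 15.07 to 15.12 in TN alone at 18 h. None of these 10 genes lay below the arrays' lower quartile throughout. Pairwise correlations of repeats were 0.990 to 0.995 in TN mix and 0.995 to 0.997 in TN alone at 96 h, and 0.988 to 0.996 in TN mix and 0.996 to 0.997 in TN alone at 18 h.

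One set of libraries stood apart in a way the labels do not explain. Transcripts of the Y chromosome, which female cells lack, were present in 3 of these 4 groups although every label reads female. Eif2s3y averaged 7.64 in TN mix and 4.17 in TN alone at 96 h, against 8.36 in TN mix and 8.14 in TN alone at 18 h, with 4.19 in TN at 0 h and 9.17 to 9.27 over the TMem groups. Kdm5d averaged 7.29 in TN mix and 5.39 in TN alone at 96 h, and 7.50 in TN mix and 7.61 in TN alone at 18 h. Uty averaged 6.95 in TN mix and 4.36 in TN alone at 96 h, and 6.72 in TN mix and 6.88 in TN alone at 18 h. Xist, the X-inactivation transcript of female cells, averaged 11.5 in TN mix and 12.1 in TN alone at 96 h, 11.0 in TN mix and 11.3 in TN alone at 18 h, and 5.26 to 5.86 over the TMem groups. The TN alone group at 96 h was thus the single group of the 4 without Y-linked signal. It is also the group against which the whole 96 h effect is measured, so no result can be given without it. The mixing effect at 96 h and whatever else sets this group apart cannot be told apart. The same holds for every difference across time and for the classes below, which use the 96 h effect.

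Among the 4 groups, summed levels of several marker lists of other cells were highest in TN alone at 96 h. A sum adds signal before the log is taken, so its highest members weigh most in it. Over 7 genes of MHC class II presentation the summed level was 11.03 to 11.16 in TN mix and 11.82 to 12.00 in TN alone at 96 h, against 10.68 to 10.79 in TN mix and 10.66 to 10.80 in TN alone at 18 h. Over 19 myeloid and dendritic markers it was 10.98 to 11.12 in TN mix and 11.83 to 11.89 in TN alone at 96 h, against 10.66 to 10.84 in TN mix and 10.68 to 10.80 in TN alone at 18 h. Over 10 mast cell and basophil markers it was 9.53 to 9.65 in TN mix and 10.30 to 10.44 in TN alone at 96 h, against 9.16 to 9.31 in TN mix and 9.29 to 9.39 in TN alone at 18 h. B cell markers (11 genes) summed to 9.98 to 10.10 in TN mix and 10.29 to 10.41 in TN alone at 96 h, and to 9.39 to 9.61 in TN mix and 9.53 to 9.62 in TN alone at 18 h. In TN at 0 h they summed to 10.27 to 10.46. Of the 19 myeloid genes 3 were called lower in TN mix at 96 h, and that list's median effect was -0.01. Its sum at 96 h was 12.36 to 12.41 in TMem mix and 12.21 to 12.34 in TMem alone. The class II and mast cell sums of TN at 0 h and TMem at 96 h were below those of TN alone at 96 h. The lists of CD4 and of NK cell markers were arranged otherwise. Over 9 markers of CD4 and regulatory T cells the sum was 10.52 to 10.63 in TN mix and 11.18 to 11.34 in TN alone at 96 h, against 11.39 to 11.53 in TN mix and 11.51 to 11.68 in TN alone at 18 h, so that TN mix at 96 h was the low group. NK cell markers (10 genes) summed to 10.83 to 11.06 in TN mix and 11.04 to 11.13 in TN alone at 96 h, overlapping, and to 9.93 to 9.98 in TN mix and 10.48 to 10.56 in TN alone at 18 h. Of these lists 2 myeloid, 2 mast cell, 3 B cell and 5 NK cell genes lay below the lower quartile on all 12 arrays. The part of these cells in the results below was not tested. In bulk RNA, fewer cells of a type and less RNA per cell cannot be told apart.

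**Figure D1:**
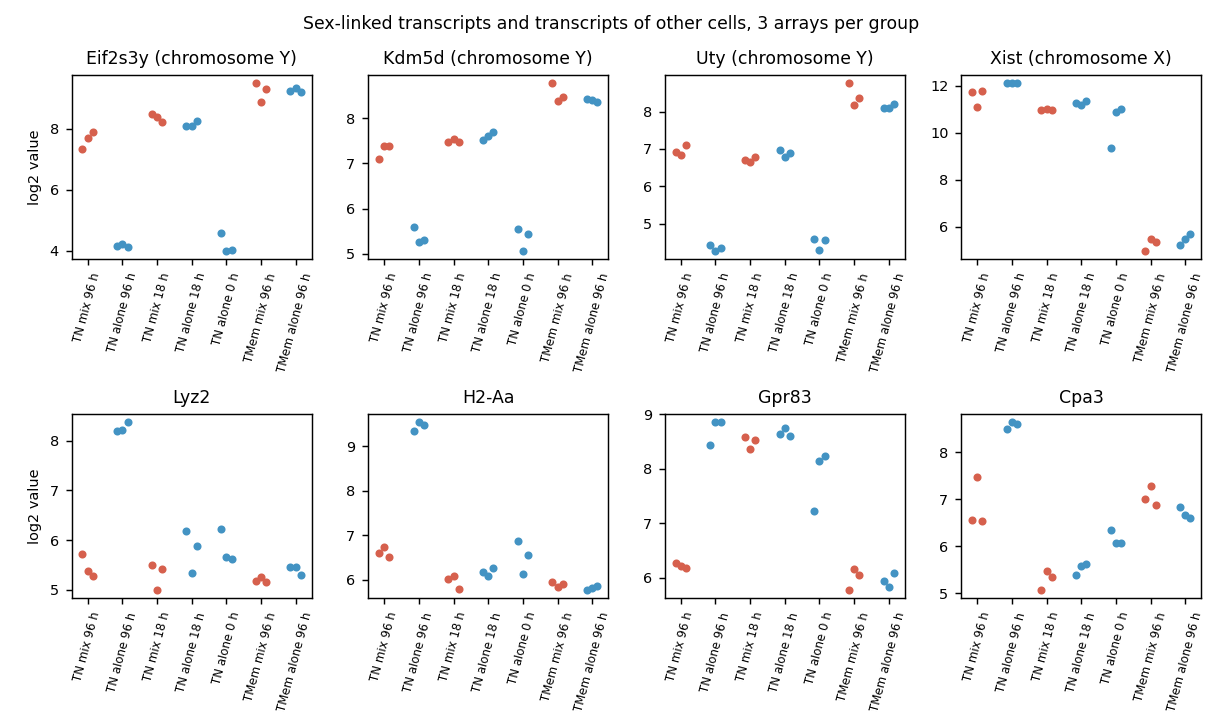
Log2 value of 8 transcripts (vertical axes, 1 panel per gene) in 7 groups (horizontal axes) with 3 arrays each, as 1 point per array, red for mixed and blue for unmixed cells. Of the 4 TN groups of 18 h and 96 h, TN alone at 96 h is the low one for Eif2s3y, Kdm5d and Uty and the high one for Lyz2, H2-Aa and Cpa3, while for Gpr83 TN mix at 96 h is the low one.

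Genes differed between TN mix and TN alone at both times, and few of them were called in the same direction at both. At 96 h 1341 genes were higher in TN mix and 700 lower (limma, adjusted p under 0.05), which is 7.02% and 3.66% of the genes tested. At 18 h 1231 genes were higher and 1585 lower, which is 6.44% and 8.3%. The difference of effects across time passed the test for 2394 genes: the effect was higher at 96 h for 1568 genes (8.21%) and lower for 826 (4.32%). Single arrays moved some of these counts by more than 1.5 times: upward calls at 96 h were 892 without TN mix repeat 2 of 96 h, downward calls at 96 h 434 without TN alone repeat 2 of 96 h, upward calls at 18 h 741 without TN alone repeat 2 of 18 h, and downward differences 536 without TN mix repeat 1 of 96 h. Large effects were rarer: a difference across time of at least 1 was seen for 228 genes upward and 102 downward.

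Of the 1231 genes higher at 18 h, 159 were also higher at 96 h, which is 12.9% of the 18 h calls and 11.9% of the 96 h calls. Over all genes 7.02% were higher at 96 h and 6.44% at 18 h. Another 52 of the 1231 (4.22%) were lower at 96 h, beside 3.66% of all genes. Of the 1585 genes lower at 18 h, 194 were also lower at 96 h, which is 12.2% of the 18 h calls and 27.7% of the 96 h calls. Over all genes 3.66% were lower at 96 h and 8.3% at 18 h. Another 188 of the 1585 (11.9%) were higher at 96 h instead, beside 7.02% of all genes. Across all 19106 genes the effects at 96 h and 18 h had a Pearson correlation of 0.06 and a Spearman correlation of -0.01. These correlations are over genes of the same arrays, which are not independent replicates, and the 2 effects share no array.

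From these calls each gene was put in a class. A persistent effect was called in the same direction at both times, and 353 genes had one, 159 upward and 194 downward. In 296 of these the difference across time was not called, in 22 the effect was larger at 96 h and in 35 smaller. A lost effect was called at 18 h and not at 96 h, with a called difference across time, and 1047 genes had one, 411 upward and 636 downward (672 in all without TN alone repeat 2 of 18 h). A late effect was called at 96 h and not at 18 h, again with a called difference, and 782 genes had one, 553 upward and 229 downward. A reversed effect was called at both times in opposite directions: 52 genes were lower in TN mix at 96 h and higher at 18 h, and 188 were higher at 96 h and lower at 18 h. A further 1842 genes were called at 1 time without a called difference across time, so that a loss or a late start is not shown for them, and 268 had a called difference without a call at either time. The remaining 14574 genes had no call. The values that place a gene in a class describe it and test nothing further.

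The balance of directions depended on how arrays were scaled. Of the called differences across time 65.5% were upward on the values as deposited, 52.6% after quantile normalization and 38.5% after centring each array on its median. For the 96 h effect these shares were 65.7%, 51.2% and 49.2%, and for the 18 h effect 43.7%, 46.9% and 60.1%. The median difference across time over all genes was 0.07, 0.01 and -0.06 under the same scalings, and the median effect as deposited was 0.05 at 96 h and -0.01 at 18 h. In gene groups, counts of 3 or fewer genes often moved by 1 or 2 when a single array was left out, and only larger moves are given below. Medians of gene groups are to be read against these, and the excess of upward over downward differences turned round after centring.

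**Figure D2:**
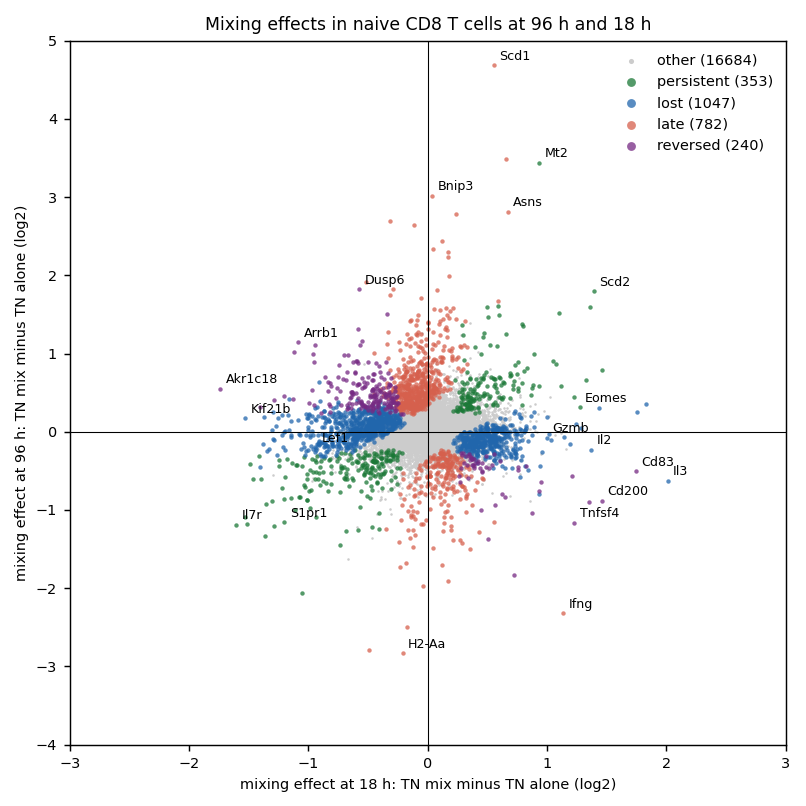
Mixing effect in TN at 96 h (vertical axis) against that at 18 h (horizontal axis), both as log2 difference TN mix minus TN alone, with 1 point per autosomal gene and colours for the classes. Most late genes lie near the vertical axis and most lost genes near the horizontal one, and the 240 reversed genes lie in the upper left and lower right.

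Groups of genes with known control sequences had upward differences across time. Promoters of 4 of their genes are shown because each holds the letters of such a sequence: Bnip3 of the hypoxia response list and Slc16a3 of the glycolysis list, both late upward, and Hmgcs1 of the cholesterol list and Mt2 of the metallothionein list, both persistent upward with a larger effect at 96 h. The sequences are RefSeq promoters on GRCm38.p6, 250 bases before to 50 bases after the gene's start, 5′ to 3′ on the gene's strand. Capitals mark ACGTG, the core of the hypoxia response element, in the first pair, TCACNCCAC, a sterol response element, in Hmgcs1, and TGCGCNC, the core of the metal response element, in Mt2, each searched on both strands.
Bnip3 (chr7:138909457-138909756, minus strand): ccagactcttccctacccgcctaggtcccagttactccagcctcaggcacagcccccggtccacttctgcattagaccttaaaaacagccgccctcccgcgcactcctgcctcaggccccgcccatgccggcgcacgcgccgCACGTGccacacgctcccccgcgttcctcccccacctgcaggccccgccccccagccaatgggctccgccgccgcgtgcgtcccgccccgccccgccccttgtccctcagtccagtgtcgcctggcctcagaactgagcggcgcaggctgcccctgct
Slc16a3 (chr11:120948817-120949116, plus strand): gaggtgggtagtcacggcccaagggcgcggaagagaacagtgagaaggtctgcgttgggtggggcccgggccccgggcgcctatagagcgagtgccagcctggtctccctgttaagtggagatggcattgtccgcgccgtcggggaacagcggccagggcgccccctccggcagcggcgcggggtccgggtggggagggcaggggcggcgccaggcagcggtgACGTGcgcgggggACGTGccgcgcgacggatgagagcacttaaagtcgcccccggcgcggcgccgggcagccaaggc
Hmgcs1 (chr13:119690101-119690400, plus strand): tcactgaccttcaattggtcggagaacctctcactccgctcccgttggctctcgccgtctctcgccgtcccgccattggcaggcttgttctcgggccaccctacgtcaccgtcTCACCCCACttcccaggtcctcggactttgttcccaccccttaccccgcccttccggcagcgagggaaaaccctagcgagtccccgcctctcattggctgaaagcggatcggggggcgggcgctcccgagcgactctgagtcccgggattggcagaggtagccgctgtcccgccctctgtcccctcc
Mt2 (chr8:94172368-94172667, plus strand): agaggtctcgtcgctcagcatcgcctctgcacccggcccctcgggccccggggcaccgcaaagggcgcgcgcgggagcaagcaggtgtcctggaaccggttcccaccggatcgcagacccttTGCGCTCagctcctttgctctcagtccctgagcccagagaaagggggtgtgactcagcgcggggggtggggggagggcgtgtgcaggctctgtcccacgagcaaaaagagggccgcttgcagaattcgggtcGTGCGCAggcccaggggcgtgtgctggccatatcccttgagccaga
In Bnip3 the match is the palindrome CACGTG, which reads ACGTG on both strands and is also an E-box (CANNTG). ACGTG occurred in 56.7% of the 30 promoters of the hypoxia list (20 of 23 genes had a promoter entry) and in 55.0% of the 20 promoters of the glycolysis list (14 of 15 genes). Among all 18383 promoters, those of the 14959 autosomal genes with an entry, the share was 21.7%, and among late upward genes 23.8%. It was higher among persistent upward (35.4%) and lost upward genes (28.9%), and 17.2% to 23.3% in the other classes and directions. TCACNCCAC occurred in 1 of the 16 promoters of the cholesterol list (6.25%), that of Hmgcs1 itself, and in 1.19% of all, so Hmgcs1 does not stand for its list in this. TGCGCNC occurred in 3 of the 4 promoters of the metallothionein list and in 21.2% of all. TGATGCAAT, an amino acid response element, was searched as well. It occurred in 1 of the 18 promoters of the list of amino acid response genes and ATF4 targets (5.56%) and in 0.141% of all. The promoter of Asns, a gene of that list, did not hold it. A match is a stretch of letters, and no binding was measured.

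Genes of the hypoxia response were higher in TN mix at 96 h and mostly not at 18 h. Of 23 autosomal genes of this list 20 passed the test upward at 96 h and 0 downward, against 4 upward and 4 downward at 18 h, with a median effect of 0.80 at 96 h and 0.13 at 18 h. A difference across time was called upward for 17 and downward for 0, 11 genes of the list were late and 4 reversed. The 18 h count was fragile: it was 1 without TN alone repeat 2 or TN mix repeat 1 of 18 h. Bnip3, a mitophagy receptor induced by hypoxia-inducible factors, had 11.36, 11.66 and 11.40 in TN mix and 8.35, 8.54 and 8.47 in TN alone at 96 h, and 6.99, 7.15 and 7.04 in TN mix and 6.85, 6.90 and 7.32 in TN alone at 18 h. The mixed arrays lay about 3 units above the unmixed ones at 96 h, while those of 18 h overlapped. The effect was 3.02 ± 0.22 at 96 h (SE, adjusted p = 8.99e-11) and 0.04 ± 0.22 at 18 h (adjusted p = 0.948), a difference of 2.98 ± 0.31 (adjusted p = 1.27e-07).

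Egln3, a prolyl hydroxylase that marks hypoxia-inducible factors for degradation and is itself their target, had an effect of 2.30 ± 0.19 at 96 h and 0.17 ± 0.19 at 18 h. Ndrg1, a stress gene of the same response, had 1.27 ± 0.09 and -0.08 ± 0.09. For Ndrg1 the arrays of TN mix at 96 h and of both groups at 18 h lay between 9.60 and 9.88, and TN alone at 96 h was the low group with a mean of 8.44. Ak4, a mitochondrial adenylate kinase, had an effect of 3.49 ± 0.25 at 96 h and 0.66 ± 0.25 at 18 h, the second not called (adjusted p = 0.0838). The 18 h effect was called with the spread of the 12 TN arrays, without the 0 h arrays and with array weights (adjusted p down to 0.000106). Under these settings Ak4 would count as persistent.

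Glucose uptake and glycolysis followed the same course. Of 15 genes 12 passed upward at 96 h and 0 downward, against 2 and 0 at 18 h, with medians of 0.72 and 0.16. The difference across time was called upward for 11 of them, but for 7 without TN alone repeat 1 or TN mix repeat 2 of 18 h. It was also 7 after centring. Slc16a3, the lactate exporter MCT4, had 9.82, 10.12 and 9.79 in TN mix and 7.80, 7.52 and 7.69 in TN alone at 96 h, and 7.58, 7.10 and 7.64 in TN mix and 7.18, 7.42 and 7.21 in TN alone at 18 h. Only the TN mix arrays of 96 h stood out, and those of 18 h overlapped. The effects differed across time by 2.07 ± 0.25 (adjusted p = 1.32e-06). Slc2a3 (GLUT3) and Slc2a1 (GLUT1), the main glucose importers of T cells, had effects of 1.83 ± 0.16 and 1.43 ± 0.13 at 96 h, and -0.29 ± 0.16 and -0.09 ± 0.13 at 18 h. The downward 18 h effect of Slc2a3 was called with the spread of the 12 TN arrays and without the 0 h arrays (adjusted p down to 0.00618). Aldoc, an aldolase isoform, had 2.70 ± 0.17 at 96 h and -0.31 ± 0.17 at 18 h, and a difference of 3.01 ± 0.24 with the lowest adjusted p of the list (1.56e-09). The downward 18 h effect of Aldoc was called without the 0 h arrays (adjusted p = 0.0283).

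Genes of lipid synthesis had upward effects at 96 h too. All 17 genes of cholesterol synthesis and its control passed upward at 96 h, against 8 upward and 2 downward at 18 h, with medians of 0.92 and 0.21, and the difference across time was called upward for 14. By class 8 were persistent upward, 5 late upward and 2 reversed. The upward count at 18 h was 4 without TN mix repeat 1 of 18 h. Hmgcs1, which makes HMG-CoA for the mevalonate pathway, had 10.17, 10.50 and 10.40 in TN mix and 8.93, 9.05 and 9.0 in TN alone at 96 h, and 9.63, 9.49 and 9.51 in TN mix and 9.28, 9.24 and 9.25 in TN alone at 18 h. Mixed arrays were above unmixed ones at both times, by 1.36 ± 0.09 at 96 h and 0.29 ± 0.09 at 18 h (adjusted p = 0.0348). The 18 h call ended without any 1 of TN alone repeats 1, 2 or 3 or TN mix repeats 1 or 3 of 18 h, with adjusted p up to 0.137. Insig1, the sterol sensor that retains SREBP in the endoplasmic reticulum, showed the same form with a firmer early effect, 1.46 ± 0.08 at 96 h and 0.51 ± 0.08 at 18 h (adjusted p = 2.43e-05). Srebf2, which encodes SREBP2 itself, was among the reversed genes, 0.60 ± 0.08 at 96 h and -0.32 ± 0.08 at 18 h.

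In fatty acid synthesis 8 of 13 genes passed upward at 96 h and 0 downward, against 1 and 2 at 18 h, with medians of 0.49 and 0.07. Differences across time were called upward for 6, and 4 of the 13 were late upward. Scd1, the stearoyl-CoA desaturase that makes oleate, had 10.21, 10.27 and 10.04 in TN mix and 5.56, 5.63 and 5.27 in TN alone at 96 h, and 5.71, 5.28 and 5.62 in TN mix and 4.80, 5.12 and 5.02 in TN alone at 18 h. At 96 h the unmixed arrays were near or below the lower quartile of all genes (5.63 to 5.75) and the mixed ones well above the array medians of 6.84 to 6.94. The effect was 4.69 ± 0.35 at 96 h and 0.56 ± 0.35 at 18 h, and the difference of 4.13 ± 0.49 (adjusted p = 1.03e-06) was the largest upward one named. The groups did not overlap at 18 h either, and that smaller effect was called (adjusted p down to 0.000397) when the spread came from the 12 TN arrays, when 0 h arrays were left out or when arrays were weighted. Fads2 and Fads1, desaturases of long unsaturated fatty acids, had differences of 1.82 ± 0.17 and 1.27 ± 0.16. Of 16 genes of fatty acid oxidation 0 passed in either direction at 96 h (limma, 3 at an unadjusted p under 0.05), against 2 upward and 2 downward at 18 h.

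Amino acid response genes under ATF4 were higher in TN mix at 96 h, and fewer of them had a called difference across time than a 96 h call. Over all autosomal genes the share with an upward difference across time was 8.21%. Of 20 ATF4 targets 13 passed upward at 96 h and 0 downward, against 3 and 1 at 18 h, with medians of 0.41 and 0.09. Upward differences across time were called for 4 and downward ones for 0 (7 and 0 without the 0 h arrays, 9 and 0 with array weights). By class 3 were late upward, 3 persistent upward and 1 reversed, and 6 were called at 1 time without a called difference. The 3 upward calls at 18 h were 1 without TN alone repeat 1 or 2 or TN mix repeat 2 or 3 of 18 h. Asns, asparagine synthetase, had 11.34, 11.45 and 11.27 in TN mix and 8.47, 8.69 and 8.46 in TN alone at 96 h, and 8.98, 8.75 and 8.83 in TN mix and 8.24, 8.15 and 8.15 in TN alone at 18 h. Mixed arrays were above unmixed ones at both times, but the 18 h effect of 0.67 ± 0.29 was not called (adjusted p = 0.136). It was called with the spread of the 12 TN arrays, without the 0 h arrays and with array weights. The difference across time was 2.14 ± 0.41 (adjusted p = 0.000599). Among 4 genes of metal binding and zinc export, 3 passed upward at 96 h and 1 at 18 h, and the difference across time was called upward for 3, of which 2 were late and 1, Mt2, persistent. Mt2, a zinc-binding metallothionein, had 12.11, 11.82 and 11.91 in TN mix and 8.08, 8.88 and 8.57 in TN alone at 96 h, and 8.41, 8.82 and 8.47 in TN mix and 7.72, 7.61 and 7.57 in TN alone at 18 h. Its effect was 3.44 ± 0.27 at 96 h and 0.94 ± 0.27 at 18 h, and the 18 h call (adjusted p = 0.0172) ended without TN alone repeat 2 or 3 or TN mix repeat 2 of 18 h. Mt1 had 2.44 ± 0.22 at 96 h and 0.12 ± 0.22 at 18 h.

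**Figure D3:**
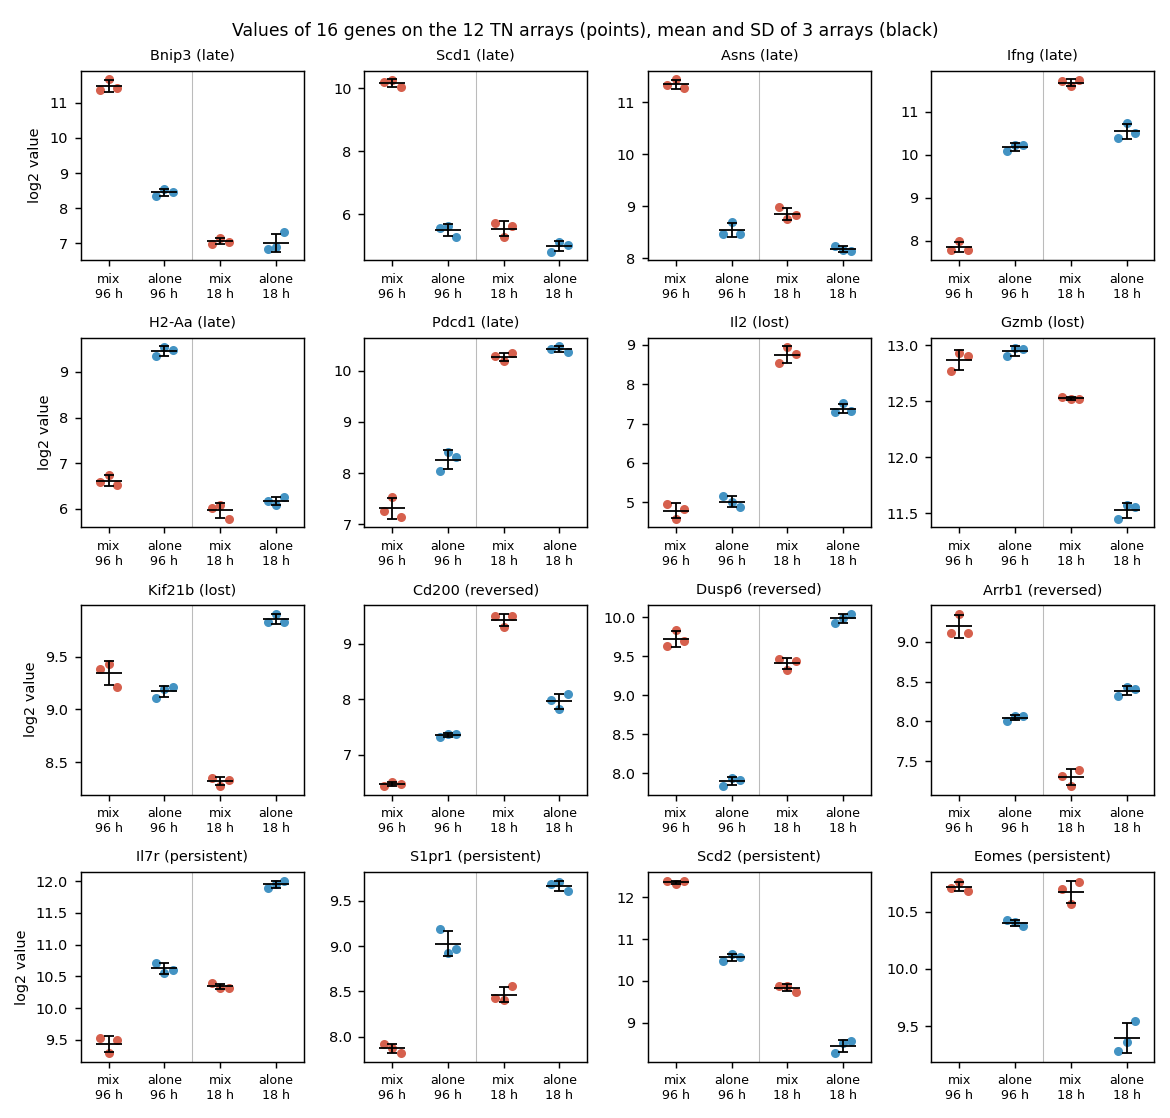
Log2 value (vertical axes) of 16 named genes on each of the 12 TN arrays, with 1 panel per gene, 1 point per array, and each group's mean and SD over 3 arrays in black. Genes with late, lost, reversed and persistent effects are shown, and the TN mix points of Bnip3 and Scd1 stand clear of TN alone at 96 h.

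Lists of effector genes held late upward members without a uniform course across time. Of 17 effector transcription factors 10 passed upward and 1 downward at 96 h, against 4 and 3 at 18 h. The upward count at 96 h was 5 without TN alone repeat 3 or TN mix repeat 2 of 96 h, and 5 after centring. Of these 17 genes 5 had a called difference across time upward and 2 downward (8 and 4 with array weights, and 3 upward after centring), and 3 were late upward. Of 20 cytotoxic molecules and serpins 10 passed upward and 2 downward at 96 h, against 6 and 2 at 18 h, with medians of 0.23 and 0.10. Of these 20 genes 4 had a called difference across time upward and 4 downward, and 4 were late upward. The upward count was 2 without TN alone or TN mix repeat 2 of 18 h and 7 with array weights, and the downward count was 2 without TN alone repeat 2 or TN mix repeat 1 or 3 of 96 h or TN alone repeat 1 of 18 h. Fasl, the ligand of the death receptor Fas, had 7.15, 8.15 and 7.82 in TN mix and 6.27, 6.43 and 6.27 in TN alone at 96 h, and 6.30, 6.05 and 6.25 in TN mix and 6.13, 6.04 and 6.15 in TN alone at 18 h. Every mixed array exceeded the unmixed ones at 96 h, with repeat 1 the lowest, and the groups overlapped at 18 h, giving a difference across time of 1.29 ± 0.30 (adjusted p = 0.00358). Ccr2, a chemokine receptor of effector and memory cells, had 9.23, 9.28 and 9.35 in TN mix and 6.58, 7.33 and 6.96 in TN alone at 96 h, and 4.95, 5.29 and 5.26 in TN mix and 5.46, 5.12 and 4.80 in TN alone at 18 h. It was low in all 6 arrays of 18 h, and its effect was 2.33 ± 0.33 at 96 h (adjusted p = 9.85e-06).

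Other late upward genes were Gzmk, a granzyme of memory cells, with an effect of 1.25 ± 0.21 at 96 h, and Il10, a cytokine that restrains inflammation, with 1.02 ± 0.15. Entpd1, the ectonucleotidase CD39, had 1.24 ± 0.12, and Stat4, which carries the IL-12 signal, 0.56 ± 0.08. None of these 4 was called at 18 h. Prf1, perforin, was called at neither time, with 0.22 ± 0.14 at 96 h and -0.04 ± 0.14 at 18 h.

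The late downward genes included Ifng and genes that are not typical of CD8 T cells. Ifng, the main effector cytokine of CD8 T cells, had 7.80, 8.0 and 7.80 in TN mix and 10.08, 10.23 and 10.23 in TN alone at 96 h, and 11.71, 11.59 and 11.73 in TN mix and 10.39, 10.74 and 10.51 in TN alone at 18 h. The mixed arrays were below the unmixed ones at 96 h and above them at 18 h, with no overlap at either time. The effect was -2.32 ± 0.45 at 96 h (adjusted p = 0.000593), and 1.14 ± 0.45 at 18 h, which was not called (adjusted p = 0.0927). It was called with the spread of the 12 TN arrays, without the 0 h arrays and with array weights (adjusted p down to 1.17e-09), under which Ifng would count as reversed. The difference across time was -3.45 ± 0.63 (adjusted p = 0.000334), the largest downward one named.

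Several genes that respond to the T cell receptor were also late downward. Xcl1, a chemokine for cross-presenting dendritic cells, had an effect of -1.97 ± 0.26 at 96 h and -0.04 ± 0.26 at 18 h. Nr4a1 and Nr4a3, nuclear receptors that follow receptor signalling, had -1.03 ± 0.14 and -1.42 ± 0.18 at 96 h, and 0.14 ± 0.14 and 0.29 ± 0.18 at 18 h. The list of receptor signal genes was not uniform, with 9 of 20 upward and 6 downward at 96 h (5 upward without TN mix repeat 2 of 96 h) and 4 and 3 at 18 h. Fos and Egr1, immediate early genes of the same list, were late upward, with 0.96 ± 0.09 and 0.81 ± 0.11 at 96 h. Pdcd1, the inhibitory receptor PD-1, had 7.26, 7.54 and 7.14 in TN mix and 8.05, 8.41 and 8.32 in TN alone at 96 h, and 10.29, 10.20 and 10.35 in TN mix and 10.42, 10.48 and 10.37 in TN alone at 18 h. All groups were higher at 18 h than at 96 h, and the groups were apart at 96 h, with an effect of -0.94 ± 0.11 (adjusted p = 8.05e-07). Over 13 inhibitory receptors 1 was called upward and 6 downward at 96 h, against 3 and 1 at 18 h.

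Other late downward genes belong to the marker lists of other cells given above. H2-Aa, an MHC class II chain of antigen-presenting cells, had 6.59, 6.75 and 6.53 in TN mix and 9.35, 9.54 and 9.48 in TN alone at 96 h, and 6.02, 6.10 and 5.79 in TN mix and 6.18, 6.08 and 6.26 in TN alone at 18 h. Lyz2, the lysozyme of myeloid cells, had 5.73, 5.39 and 5.29 in TN mix and 8.20, 8.20 and 8.37 in TN alone at 96 h, and at most 6.18 on any array at 18 h. Gpr83, a receptor known from regulatory T cells, had 6.27, 6.21 and 6.18 in TN mix and 8.43, 8.85 and 8.85 in TN alone at 96 h, and 8.58, 8.36 and 8.53 in TN mix and 8.63, 8.74 and 8.61 in TN alone at 18 h. For H2-Aa and Lyz2 the arrays of TN alone at 96 h were the high ones, and for Gpr83 those of TN mix at 96 h were the low ones. The 96 h effects were -2.83 ± 0.16, -2.79 ± 0.19 and -2.49 ± 0.17. Cpa3, a mast cell protease, had -1.73 ± 0.27 at 96 h. At 96 h 4 of 7 MHC class II genes, 3 of 19 myeloid genes, 5 of 10 mast cell and basophil genes and 5 of 9 genes of CD4 and regulatory T cells were called downward, beside a background of 3.66%, and 1 class II gene and 1 gene of the CD4 list were called upward. The count of 5 for the CD4 list was 2 without TN alone repeat 3 of 96 h and 3 without TN alone repeat 1 or 2 or TN mix repeat 2 or 3 of 96 h, or without TN alone repeat 1 or 3 or TN mix repeat 3 of 18 h. The part of other cells in these differences was not tested.

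Lost upward effects included cytokines, 6 of 22 genes of that list. Of these 22 cytokines and chemokines 3 passed upward and 3 downward at 96 h, against 8 and 0 at 18 h, and the difference across time was called downward for 9 and upward for 2. The count at 18 h was 5 without TN alone repeat 1 or 2 or TN mix repeat 1 or 2 of 18 h, and the downward count at 96 h was 8 without the 0 h arrays. Il2, the T cell growth factor, had 4.95, 4.58 and 4.83 in TN mix and 5.17, 5.0 and 4.88 in TN alone at 96 h, and 8.53, 8.95 and 8.77 in TN mix and 7.30, 7.51 and 7.33 in TN alone at 18 h. At 96 h all 6 arrays were below the lower quartile of all genes (5.63 to 5.75), and at 18 h every mixed array exceeded the unmixed ones. The effect was -0.23 ± 0.17 at 96 h and 1.37 ± 0.17 at 18 h (adjusted p = 1.43e-06).

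Il3, a growth factor for myeloid cells made by activated T cells, had 4.60, 4.57 and 4.47 in TN mix and 5.31, 5.11 and 5.10 in TN alone at 96 h, and 7.61, 7.91 and 7.83 in TN mix and 5.76, 5.91 and 5.65 in TN alone at 18 h. Both groups were low at 96 h and apart at 18 h, and the effect of mixing on Il3 was -0.62 ± 0.41 at 96 h and 2.01 ± 0.41 at 18 h (adjusted p = 0.000843). The 96 h effect, in which the groups did not overlap, was called with the spread of the 12 TN arrays and without the 0 h arrays. Gzmb, the granzyme that triggers apoptosis in target cells, had 12.77, 12.93 and 12.91 in TN mix and 12.90, 12.97 and 12.97 in TN alone at 96 h, and 12.54, 12.52 and 12.52 in TN mix and 11.45, 11.58 and 11.56 in TN alone at 18 h. Here the effect of 1.00 ± 0.08 at 18 h (adjusted p = 1.48e-09) ended with both groups high at 96 h. All 6 values at 96 h were above the 99th percentile of 12.7 over all genes and below the highest value of 14.1 on these arrays. Cd24a, a surface glycoprotein of activated T cells, had 0.36 ± 0.25 at 96 h and 1.83 ± 0.25 at 18 h.

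Ribosome assembly genes were higher in mixed cells at 18 h. Of 25 genes 0 passed upward and 2 downward at 96 h, against 14 and 0 at 18 h, with medians of -0.15 at 96 h and 0.31 at 18 h, and the difference across time was called downward for 10. The 18 h count was 9 without TN alone repeat 2 or TN mix repeat 1 of 18 h, and the count of differences was 6 without TN alone repeat 2 of 96 h or TN mix repeat 1 of 18 h, but 16 after centring. Wdr12, a factor of large-subunit maturation, had 9.57, 10.15 and 10.05 in TN mix and 10.05, 10.13 and 10.24 in TN alone at 96 h, and 11.18, 10.92 and 11.01 in TN mix and 10.38, 10.26 and 10.32 in TN alone at 18 h. The groups overlapped at 96 h and were apart at 18 h, where the effect was 0.72 ± 0.13 (adjusted p = 0.00026).

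Of 34 genes of the respiratory chain and ATP synthase 0 passed upward and 1 downward at 96 h, against 13 and 0 at 18 h. That 18 h count was 4 without TN mix repeat 1, 5 without TN alone repeat 2, and 8 without TN mix repeat 3 or TN alone repeat 1 or 3 of 18 h. The difference across time was called downward for 8 of them, and for 3 without TN mix repeat 1 of 96 h, 4 without TN alone repeat 2 or TN mix repeat 1 of 18 h, and 5 without TN alone repeat 2 of 96 h, but for 14 after quantile normalization and 17 after centring. Of 27 genes of DNA replication 0 passed upward and 1 downward at 96 h, against 6 and 0 at 18 h, and the 18 h count was 3 without TN alone repeat 2 of 18 h. Among 24 genes of mitosis 2 passed upward and 0 downward at 96 h, against 3 and 2 at 18 h.

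Lost downward effects numbered 636 genes against 411 upward on the values as deposited. The split of lost genes under other scalings was not counted. After centring, the balance of directions turned round, with 60.1% of 18 h calls and 38.5% of called differences across time upward. Kif21b, a kinesin of lymphocytes, had 9.39, 9.43 and 9.21 in TN mix and 9.11, 9.19 and 9.21 in TN alone at 96 h, and 8.35, 8.28 and 8.33 in TN mix and 9.83, 9.91 and 9.82 in TN alone at 18 h. The groups were far apart at 18 h and close together at 96 h, with effects of 0.17 ± 0.10 at 96 h and -1.53 ± 0.10 at 18 h (adjusted p = 6.72e-11). Lef1, a transcription factor of naive and stem-like T cells, had 10.14, 10.18 and 10.10 in TN mix and 10.43, 10.29 and 10.31 in TN alone at 96 h, and 10.21, 10.18 and 10.22 in TN mix and 11.11, 11.15 and 11.15 in TN alone at 18 h. The mixed arrays lay between 10.10 and 10.22 at both times, and the unmixed arrays of 18 h were the high ones, beside a mean of 11.16 in unstimulated TN. The effect was -0.21 ± 0.09 at 96 h and -0.93 ± 0.09 at 18 h, and the 96 h effect was called without the 0 h arrays and with array weights. Klrd1, the NK receptor chain CD94, had 0.17 ± 0.20 at 96 h and -1.25 ± 0.20 at 18 h, and Cpt1a, which admits fatty acids to mitochondria for oxidation, 0.12 ± 0.18 and -0.98 ± 0.18.

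Reversed effects ran in both directions. Among those higher in mixed cells first and lower later were costimulatory and activation molecules. Cd200, a ligand that quiets myeloid cells, had 6.44, 6.51 and 6.47 in TN mix and 7.32, 7.38 and 7.37 in TN alone at 96 h, and 9.50, 9.29 and 9.49 in TN mix and 7.98, 7.83 and 8.10 in TN alone at 18 h. The groups were apart at both times with opposite order, giving -0.88 ± 0.11 at 96 h, 1.46 ± 0.11 at 18 h and a difference of -2.34 ± 0.16 (adjusted p = 8.28e-11). Tnfsf4, the ligand of OX40, had 5.99, 6.12 and 5.69 in TN mix and 6.86, 7.31 and 7.13 in TN alone at 96 h, and 7.67, 7.55 and 7.61 in TN mix and 6.34, 6.34 and 6.46 in TN alone at 18 h. Again no arrays overlapped, and the effect was -1.16 ± 0.13 at 96 h and 1.23 ± 0.13 at 18 h.

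Cd83, an activation marker of lymphocytes and dendritic cells, had -0.51 ± 0.13 at 96 h and 1.74 ± 0.13 at 18 h, and its 96 h call (adjusted p = 0.00886) ended without TN alone repeat 2 or TN mix repeat 2 of 96 h (adjusted p up to 0.0647). Cd74, the MHC class II invariant chain, had -1.83 ± 0.15 at 96 h and 0.72 ± 0.15 at 18 h, and it belongs to the class II list whose summed level was highest in TN alone at 96 h. Irf8, a transcription factor shared by effector T cells and antigen-presenting cells, had -0.42 ± 0.07 at 96 h and 0.38 ± 0.07 at 18 h. Of 17 activation and costimulation molecules 5 were called upward and 3 downward at 96 h, against 9 and 0 at 18 h.

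The 188 genes that were lower in mixed cells first and higher later included regulators of signalling. Dusp6, the phosphatase that switches off ERK, had 9.63, 9.84 and 9.70 in TN mix and 7.84, 7.94 and 7.92 in TN alone at 96 h, and 9.46, 9.33 and 9.44 in TN mix and 9.92, 9.99 and 10.05 in TN alone at 18 h. The mixed arrays lay between 9.33 and 9.84 at both times, and the unmixed ones were the lowest at 96 h and the highest at 18 h. The difference across time was 2.40 ± 0.14 (adjusted p = 1.75e-11). Arrb1, a beta-arrestin that dampens chemokine receptors, had 9.12, 9.36 and 9.11 in TN mix and 8.01, 8.06 and 8.07 in TN alone at 96 h, and 7.32, 7.19 and 7.39 in TN mix and 8.32, 8.43 and 8.40 in TN alone at 18 h. The mixed arrays were above the unmixed ones at 96 h and below them at 18 h, with 1.15 ± 0.11 at 96 h and -1.09 ± 0.11 at 18 h. Irf7, a regulator of type I interferon, had 0.67 ± 0.09 at 96 h and -0.37 ± 0.09 at 18 h, and of 23 interferon response genes 5 passed upward and 1 downward at 96 h, against 2 and 4 at 18 h.

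Downward persistent effects included genes of the naive state. Of 20 genes of the naive and central memory list 12 passed downward at 96 h and 12 at 18 h, with 1 and 0 upward, medians of -0.48 at 96 h and -0.59 at 18 h, and 9 genes persistent. A difference across time was called upward for 3 of the 20 and downward for 0. Il7r, the IL-7 receptor that sustains naive and memory cells, had 9.53, 9.29 and 9.49 in TN mix and 10.71, 10.56 and 10.61 in TN alone at 96 h, and 10.39, 10.31 and 10.32 in TN mix and 11.88, 11.96 and 12.00 in TN alone at 18 h. S1pr1, the receptor that lets T cells leave lymphoid organs, had 7.92, 7.88 and 7.82 in TN mix and 9.19, 8.92 and 8.97 in TN alone at 96 h, and 8.43, 8.40 and 8.56 in TN mix and 9.69, 9.71 and 9.60 in TN alone at 18 h. For both genes the mixed arrays lay below the unmixed ones at each time. The effect on Il7r was -1.19 ± 0.16 at 96 h and -1.61 ± 0.16 at 18 h, and that on S1pr1 was -1.15 ± 0.08 and -1.20 ± 0.08, with a difference across time of 0.05 ± 0.12 (adjusted p = 0.839). The difference for Il7r, 0.42 ± 0.23, was called with the spread of the 12 TN arrays, without the 0 h arrays and with array weights.

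Klf2, which drives transcription of S1pr1, had -0.68 ± 0.13 at 96 h and -0.90 ± 0.13 at 18 h. Il6ra, the IL-6 receptor, had -1.21 ± 0.14 and -1.29 ± 0.14. Itgae, the integrin CD103 and a member of the effector surface receptor list, was also persistent downward, with -2.06 ± 0.27 and -1.05 ± 0.27. Its difference across time of -1.01 was not called (adjusted p = 0.0815). It was called with the spread of the 12 TN arrays, without the 0 h arrays and with array weights (adjusted p down to 5.27e-07). The other 11 genes of the naive list were not persistent: 5 were called downward at 1 time without a called difference, Lef1 was lost, Satb1 was late upward, and 4 had no call. Satb1, a chromatin organiser, had 0.63 ± 0.09 at 96 h. Ccr7, the lymph node homing receptor, was among the 4 without a call, with -0.29 ± 0.12 at 96 h and 0.21 ± 0.12 at 18 h. The difference across time of Ccr7, -0.50 ± 0.17, lay just outside the threshold (adjusted p = 0.053), and it was called without TN mix repeat 1 of 96 h and in several other settings.

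Upward persistent effects included 8 of the 17 cholesterol genes given above, Hmgcs1 and Insig1 among them. Scd2, a desaturase related to Scd1, had 12.38, 12.31 and 12.38 in TN mix and 10.48, 10.64 and 10.57 in TN alone at 96 h, and 9.88, 9.88 and 9.74 in TN mix and 8.27, 8.50 and 8.55 in TN alone at 18 h. Serpinb6b, an inhibitor of granzymes, had 9.78, 10.05 and 9.75 in TN mix and 8.10, 8.46 and 8.24 in TN alone at 96 h, and 11.18, 11.13 and 11.18 in TN mix and 9.68, 9.80 and 9.92 in TN alone at 18 h. The groups were apart at both times for both genes. The effects were 1.79 ± 0.15 at 96 h and 1.39 ± 0.15 at 18 h for Scd2, and 1.59 ± 0.24 and 1.36 ± 0.24 for Serpinb6b. The difference across time of Scd2, 0.405 (adjusted p = 0.23), was called in the same 3 settings as that of Il7r (adjusted p down to 0.00738). Bhlhe40, a transcription factor of T cell cytokine production, had 0.90 ± 0.12 and 1.05 ± 0.12, and Cxcl10, an interferon-induced chemokine, 0.81 ± 0.19 and 0.83 ± 0.19.

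Eomes, a T-box factor of memory and effector CD8 T cells, had 10.71, 10.76 and 10.68 in TN mix and 10.42, 10.41 and 10.37 in TN alone at 96 h, and 10.69, 10.56 and 10.76 in TN mix and 9.29, 9.37 and 9.54 in TN alone at 18 h. The mixed arrays lay between 10.56 and 10.76 at both times and above the unmixed ones, which were lowest at 18 h. The effect was 0.32 ± 0.09 at 96 h (adjusted p = 0.0148) and 1.27 ± 0.09 at 18 h. The 96 h call ended after centring and without TN alone repeat 3 or TN mix repeat 2 of 96 h (adjusted p up to 0.0663). The related factor Tbx21 (T-bet) had 0.23 ± 0.14 at 96 h and 0.46 ± 0.14 at 18 h (adjusted p = 0.032), a call that ended without any 1 of the 6 TN arrays of 18 h. Since the difference of -0.23 ± 0.20 was not called (adjusted p = 0.526), a loss is not shown for Tbx21. Cd44, an adhesion molecule of antigen-experienced cells, had 0.46 ± 0.23 at 96 h and 0.77 ± 0.23 at 18 h, and its 18 h call ended without TN alone repeat 1 or 2 or TN mix repeat 2 or 3 of 18 h. Il2ra, the IL-2 receptor alpha chain, was called at neither time, with 0.07 ± 0.08 and 0.19 ± 0.08.

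**Figure D4:**
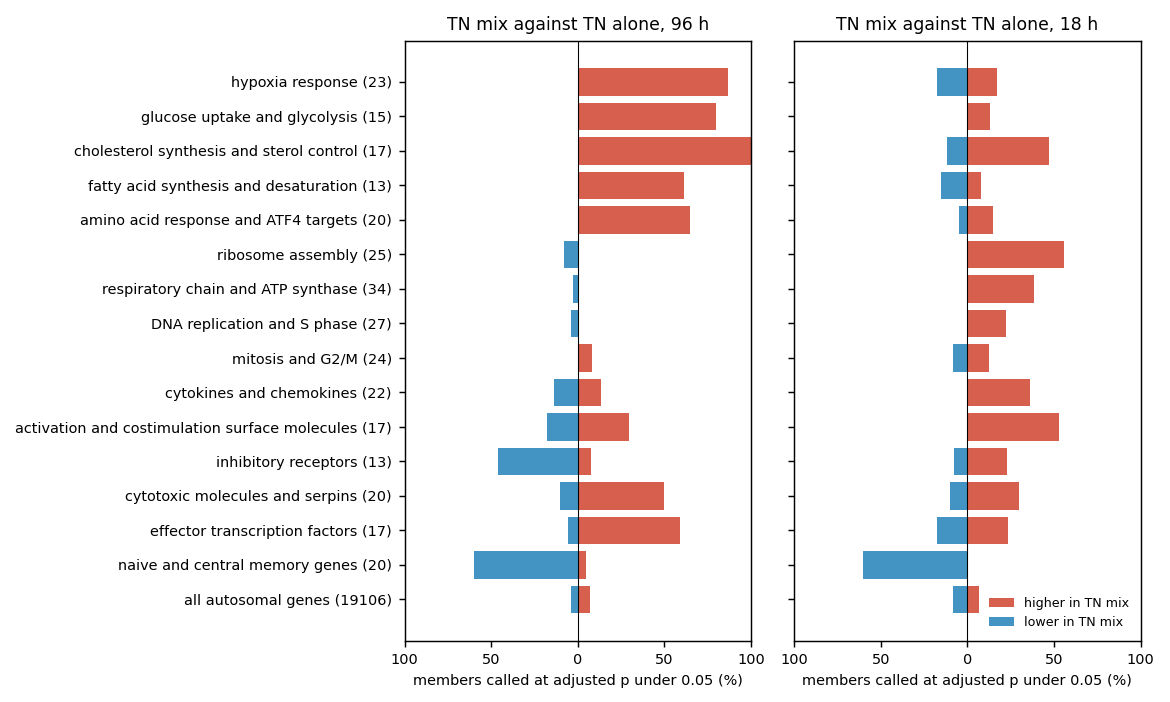
Share of each gene list's autosomal members (horizontal axis, percent) whose mixing effect in TN was called upward (red, to the right) or downward (blue, to the left) at an adjusted p under 0.05, at 96 h (left panel) and 18 h (right panel), with the number of members in brackets and all autosomal genes in the lowest row. All 17 cholesterol genes and 20 of 23 hypoxia genes are called higher at 96 h, against 8 and 4 at 18 h, and 12 of 20 naive genes are called lower at both times.

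The rules that made the classes used no contrast of the memory cells, though their arrays shared in the fit's estimate of spread. The memory cell arrays give a mixing effect of their own. TMem mix differed from TMem alone in few genes: 189 higher (0.989%) and 28 lower (0.147%) at 96 h, and 0 higher (0%) and 6 lower (0.0314%) at 18 h (limma), with 1369 and 579 genes at an unadjusted p under 0.05. The count of 217 called genes at 96 h was 102 to 133 without TMem alone repeat 1 or 3 or TMem mix repeat 1 or 2 of 96 h, and that of 6 at 18 h was 1 or 2 without TMem mix repeat 1 or 2 or TMem alone repeat 2 or 3 of 18 h. The effect on memory cells changed across time for 38 genes (0.199%), and for 18 to 25 without any 1 of repeats 1 and 2 of TMem mix at either time, repeats 1 and 3 of TMem alone at 96 h or repeats 2 and 3 of TMem alone at 18 h. Sorted TN mix and TMem mix cells came from mixed cultures, so these arrays need not be independent of the TN mix arrays.

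The sign of the memory cells' effect at 96 h differed between the classes. It was positive for 45.5% of all genes. For the late upward genes it was positive in 75.6% and for the late downward ones in 35.8%, with medians of 0.10 and -0.05. For the lost downward genes it was positive in 78.0% and for the lost upward ones in 24.3%, and for the reversed genes in 89.9% of those that were lower first and 26.9% of those that were higher first. Among persistent genes it was positive for 61.6% of the upward and 56.2% of the downward ones. The sizes were small: the median over the 188 genes lower first was 0.19, beside -0.01 over all genes. Of those 188, 37 were called higher in TMem mix at 96 h, as were 42 of the 553 late upward and 37 of the 636 lost downward genes. At 18 h the order was another: the memory cells' effect was positive for 60.9% of all genes, 34.4% of late upward, 66.7% of lost upward and 42.6% of lost downward ones. Genes share arrays, so these shares are descriptions.

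**Figure D5:**
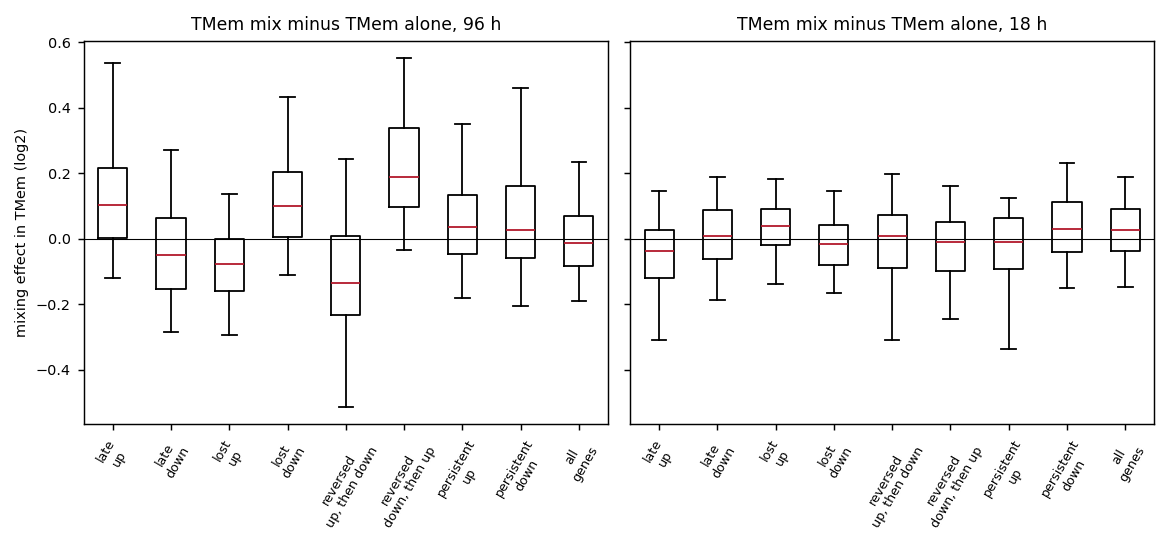
Mixing effect in TMem (vertical axis, log2 difference TMem mix minus TMem alone) at 96 h (left panel) and 18 h (right panel) for the autosomal genes of each class of the TN effect and for all autosomal genes, with the median in red, the quartiles as boxes and the 5th and 95th percentiles as whiskers. At 96 h reversed genes that were lower first in TN mix have a median of 0.19 and those higher first a median of -0.14, beside -0.01 over all genes.

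Arrb1 and Ndrg1 were among the genes called in both cell types at 96 h. The effect on Arrb1 in memory cells was 0.85 ± 0.11 (adjusted p = 2.94e-05) and that on Ndrg1 0.91 ± 0.09 (adjusted p = 3.84e-07), and Aldoc had 1.05 ± 0.17. Stat4, Cd28 and Egr1, all late upward in TN, had 0.58 ± 0.08, 0.61 ± 0.10 and 0.82 ± 0.11 in memory cells. S1pr1 went the other way in memory cells, 0.54 ± 0.08 at 96 h (adjusted p = 0.000405), and so did Pdcd1 with 0.44 ± 0.11 (adjusted p = 0.0492) and Lag3, another inhibitory receptor, with 0.48 ± 0.08. Scd1, Bnip3, Slc16a3 and Asns, by contrast, had effects in memory cells of 0.25 ± 0.35, 0.18 ± 0.22, -0.03 ± 0.18 and 0.12 ± 0.29 at 96 h, none of them called.

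The change across time of the naive cells' effect differed from that of the memory cells' effect for 425 genes (2.22% of those tested). Over all genes it was higher in TN for 284 and lower for 141. This difference shares its TN arrays with the classes and contains the TN change across time. Late and lost genes were chosen on that change, and reversed genes on both TN effects. Its direction within these classes was thus largely set in advance, and the counts only describe them. The difference was higher in TN for 70 of the late upward genes, 101 of the lost downward genes and 96 of the reversed genes that were lower first. It was lower in TN for 58 of the late downward genes, 32 of the lost upward ones and 27 of the reversed ones that were higher first. It passed for Scd1 (3.47 ± 0.69, adjusted p = 0.00519), Bnip3 (1.98 ± 0.44, adjusted p = 0.011), Insig1 (0.92 ± 0.15, adjusted p = 0.000679), Dusp6 (2.17 ± 0.20, adjusted p = 3.42e-07) and Ifng (-3.90 ± 0.89, adjusted p = 0.0147). It did not pass for Asns (2.03 ± 0.58, adjusted p = 0.066), Fasl (1.12 ± 0.42, adjusted p = 0.199) or Lef1 (0.51 ± 0.18, adjusted p = 0.171).

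Set beside the level of mixed memory cells at 96 h, TN mix lay between TN alone and TMem mix for 369 of the 553 late upward genes (66.7%), beyond TMem mix for 163, and on the side of TN alone away from TMem mix for 21. Over all genes TN mix lay between for 43.0%. For the 229 late downward genes 83 lay between, 120 beyond and 26 away. Of the persistent genes 119 of 159 upward and 121 of 194 downward ones lay between. These positions use the TN arrays that placed the genes in their classes. Scd1 averaged 10.2 in TN mix, 5.49 in TN alone and 11.5 in TMem mix at 96 h, and Bnip3 11.5, 8.46 and 12.1. Ifng lay beyond, with 7.87 in TN mix, 10.2 in TN alone and 9.55 in TMem mix. Y-linked Eif2s3y, with the values given at the start, also lay between. The part that memory cells or their RNA in the sorted naive fraction may have had in these levels was not tested.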

How the data were processed

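RNA was amplified, biotin-labelled and hybridised to Affymetrix gene arrays, per the labels' protocols. The authors deposited log2 values of all arrays, and the submitters' processing notes name RMA and Partek. Raw intensities were not used here. Values ran from 2.05 to 14.2, with array medians of 6.76 to 6.94, and 3 arrays per group limit the precision.

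Of 35556 rows, 21789 name 1 gene in the platform's annotation, 1621 several, and 12146 are unnamed here. Symbols were updated by gene number for 21698 rows. For 999 genes with more than 1 row, the row with the highest mean was kept, giving 19938 genes, of which 19106 lie on the 19 autosomes.

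One mean per group was fitted to all 30 arrays with limma 3.58.1 in R 4.3.3 (lmFit, eBayes, 20 residual and 6.50 prior degrees of freedom), and all effects and differences are contrasts of this fit. P-values were adjusted over all 19938 genes by the method of Benjamini and Hochberg, and a gene was called at an adjusted p under 0.05. The fit was tested on simulated data. The labels name no animals, so p-values measure the spread between these arrays.

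Deviations of same-numbered TN mix and TN alone arrays from their group means correlated at 0.492, 0.316 and 0.136 at 96 h, where the numbers were taken to pair the arrays, and at 0.021, -0.178 and -0.301 at 18 h, where they were not. No label pairs the arrays, and arrays of different numbers were not compared in this way.

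The genes, classes and 29 gene lists (492 of 526 entries matched) were chosen with earlier results of these data known. Named genes were, for each class and direction, the 8 with the largest effects without overlap, the 10 largest differences each way, up to 5 per list with the smallest adjusted p of the difference, and a set followed throughout. Promoters are RefSeq entries on GRCm38.p6, matched by gene number. Alternatives covered the arrays in the fit, repeat number as a block, array weights, scaling, the variance model, a filter on low values, the row per gene, thresholds and single arrays left out.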

Additional observations from a re-analysis of the deposited data

Results flagged for a closer look

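The mixing effect in TN differed between 96 h and 18 h, by the interaction term of the limma fit, for 15 of the genes followed by name. The effect at 96 h minus that at 18 h was positive for Scd1 (4.13), Bnip3 (2.98), Asns (2.14), Slc2a1 (1.52), Fasl (1.29), Hmgcs1 (1.08) and Lef1 (0.73). It was negative for Ifng (-3.45), Il3 (-2.63), Cd200 (-2.34), Il2 (-1.60), Nr4a1 (-1.17), Gzmb (-1.07), Eomes (-0.96) and Pdcd1 (-0.80).

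The change across time in TN also differed from that in TMem, by the term for both cell types, for 13 followed genes. TN minus TMem was positive for Scd1 (3.47), Bnip3 (1.98), Slc2a1 (1.06) and Hmgcs1 (1.06). It was negative for Ifng (-3.90), Il3 (-3.06), Cd200 (-2.52), Nr4a1 (-1.32), Il2 (-1.28), Gzmb (-1.13), Pdcd1 (-1.07), Ccr7 (-0.99) and Eomes (-0.67). For Ccr7 the change in TN itself was not called.

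Y-linked genes, which lie outside the autosomal genes tested, gave signal in groups labelled female. Eif2s3y averaged 7.64 in TN mix at 96 h, 8.36 in TN mix at 18 h and 8.14 in TN alone at 18 h. Kdm5d averaged 7.29, 7.50 and 7.61 in the same groups, and Uty 6.95, 6.72 and 6.88. In TN alone at 96 h these genes averaged 4.17, 5.39 and 4.36.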

How the results depend on the processing

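Counts of calls depended most on how the spread was estimated and on thresholds, and no named gene's called effect changed sign in any setting. Without the 6 arrays of 0 h, downward differences across time were 1414 in place of 826, upward 18 h calls 1908 in place of 1231, downward 96 h calls 1142 in place of 700, and persistent, lost and reversed genes 696, 1587 and 497 in place of 353, 1047 and 240. In TMem this setting gave 41 calls at 18 h, 490 at 96 h and 189 for the difference across time (6, 217 and 38 as reported), and 1091 genes for the difference between TN and TMem (425 as reported). With array weights the differences across time were 2710 upward and 2273 downward, the 96 h calls 3677 and 2425, the upward 18 h calls 2509, the TMem counts 99, 876 and 326, the TN against TMem count 1782, and persistent, lost, late and reversed genes 1374, 1686, 1883 and 765. Quantile normalization gave 1262 downward differences, 1157 downward 96 h calls and 61 TMem differences. Centring gave 859 upward and 1375 downward differences, 886 upward 96 h calls, 10 TMem calls at 18 h and 266 TN against TMem differences. The filter on low values gave 58 TMem differences. At an adjusted p under 0.01 there were 944 upward and 346 downward differences, 651 upward 18 h calls, 843 upward and 396 downward 96 h calls, and 164 persistent, 551 lost, 452 late and 125 reversed genes. Requiring effects of at least 0.5 left 109, 576, 479 and 57 genes in these classes. The cause of these moves was not tested, except that the thresholds are stricter by construction.

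Leaving out 1 array at a time gave 1216 to 1625 upward and 536 to 978 downward differences across time, 892 to 1418 upward and 434 to 736 downward 96 h calls, and 741 to 1360 upward and 1111 to 1610 downward 18 h calls. It gave 242 to 437 persistent, 672 to 1103 lost, 565 to 759 late and 175 to 229 reversed genes. In TMem it gave 102 to 210 calls at 96 h, 1 to 6 at 18 h and 18 to 29 differences across time, and for TN against TMem 310 to 423.

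With repeat number as a fixed replicate block the differences across time were 1512 upward and 772 downward, the 96 h calls 1271 and 670 and the 18 h calls 1156 and 1548, and as a random block the differences were 1514 and 777 (consensus correlation -0.030). A block at 96 h alone, where the numbers were taken to pair the arrays, gave 1598 and 881 differences and 1387 and 720 calls at 96 h. No block moved a count of these results by over 1.5 times. This block at 96 h and the leaving out of TMem arrays were chosen after seeing the data. For the 73 named autosomal genes and 3 effects each, 32 of 219 results crossed the threshold in some setting. With no raw intensities, signal over background is unknown, and genes near the lower quartile, such as Il2 and Il3 at 96 h, may be compressed.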

Other observations

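Some further gene lists were small, and their counts stand beside called differences across time for 8.21% upward and 4.32% downward of all autosomal genes. Of 15 effector surface receptors 3 had one upward and 0 downward (5 upward and 1 downward without the 0 h arrays), with 4 called upward and 2 downward at 96 h, against 1 and 4 at 18 h. Of 10 CD8 T cell markers 2 had one upward (4 after quantile normalization), with 2 called upward at 96 h and 2 downward at 18 h. Among 12 survival genes of the BCL2 family 1 had one downward, with 1 called in each direction at 96 h, against 2 upward and 0 downward at 18 h. At 96 h 1 of 11 B cell markers, 2 of 10 NK cell markers and 1 of 6 markers of erythroid cells and platelets were called downward and 0 upward.

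Idh1, the cytosolic isocitrate dehydrogenase, had 7.42, 8.32 and 8.06 in TN mix and 5.72, 6.19 and 6.16 in TN alone at 96 h, and 5.99, 5.74 and 5.52 in TN mix and 6.42, 6.10 and 6.28 in TN alone at 18 h. The groups did not overlap at either time, but the 18 h effect of -0.51 ± 0.21 was not called (limma, adjusted p = 0.114). It was called without the 0 h arrays and with array weights. The effect at 96 h was 1.91 ± 0.21 and the difference across time 2.42 ± 0.30 (adjusted p = 1.95e-06).

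Cd80, a costimulatory ligand for CD28, had 7.23, 7.46 and 7.21 in TN mix and 8.63, 8.90 and 8.86 in TN alone at 96 h, and 5.97, 5.95 and 6.04 in TN mix and 5.87, 5.53 and 5.50 in TN alone at 18 h. Its effect was -1.50 ± 0.13 at 96 h (adjusted p = 1.86e-09), while memory cells were higher than both naive groups, with a mean of 9.22 in TMem mix at 96 h. Lgals3, the lectin galectin-3, had the same arrangement, with an effect of -1.90 ± 0.23 at 96 h and a mean of 11.6 in TMem mix. Ccr4, a chemokine receptor, had -1.70 ± 0.22 at 96 h, with a mean of 8.97 in TMem mix.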
